A study of Drosophila melanogaster with 24 samples.

Results

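The core apoptosis machinery of Drosophila melanogaster was followed through 24 RNA sequencing libraries of flies fed methylmercury as larvae. Its 8 genes here are hid, rpr, grim, skl, Diap1, Dronc, Drice and Dcp-1. They were picked by locus tag from the 17545 genes in the count files. All 8 passed the low-count filter in every fit, but grim and skl had too few reads in adult flight muscle to be compared between treatments.

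The groups cross 2 treatments, 2 stages and 2 tissues, with 3 libraries in each of 8 groups. Treated larvae ate food containing 5 µM methylmercury chloride (MeHg) from the first instar, and control larvae ate food with the same amount of solvent, 0.01% DMSO. Animals were taken as adults of 15 days, which had been moved to food free of MeHg when they left the pupal case, or as pupae at 30 h. Indirect flight muscle (IFM), the dorsal longitudinal and dorsoventral muscles that move the wings, and ventral nerve cord (VNC), freed of the central brain, were dissected from animals fixed in Methacarn. Each replicate pooled tissue of 50 animals, per the labels. The labels name no genotype or strain, so MeHg and control animals are told apart by the food alone.

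In flies, apoptosis is held in check by Diap1, a ubiquitin ligase of the inhibitor of apoptosis family that binds and restrains caspases. The proteins of hid, rpr, grim and skl antagonise Diap1 through a short motif at their amino terminus and so free the caspases. Dronc is the initiator caspase, which is activated on the adaptor Dark, and Drice and Dcp-1 are the effector caspases that it cleaves. Ecdysone pulses control rpr and hid in the larval tissues that are removed at metamorphosis.

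The 4 antagonist genes lie together on the left arm of chromosome 3, all on the minus strand (dm6 build, RefSeq annotation). hid spans 3L:18167745-18185641 with 4018 exonic bases, grim spans 3L:18302719-18304417 with 1699, rpr spans 3L:18397535-18398435 with 901, and skl spans 3L:18438561-18439942 with 1382. Diap1 is on the same arm at 3L:16038410-16051034 on the minus strand, with 3143 exonic bases. Dronc is at 3L:9968479-9971002 on the plus strand, with 2015 exonic bases. Drice is at 3R:29799658-29801584 on the plus strand, with 1927 exonic bases. Dcp-1 is at 2R:23551313-23553547 on the plus strand, with 1749 exonic bases. rpr has the shortest exonic sequence and hid the longest of the 8.

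**Figure D1:**
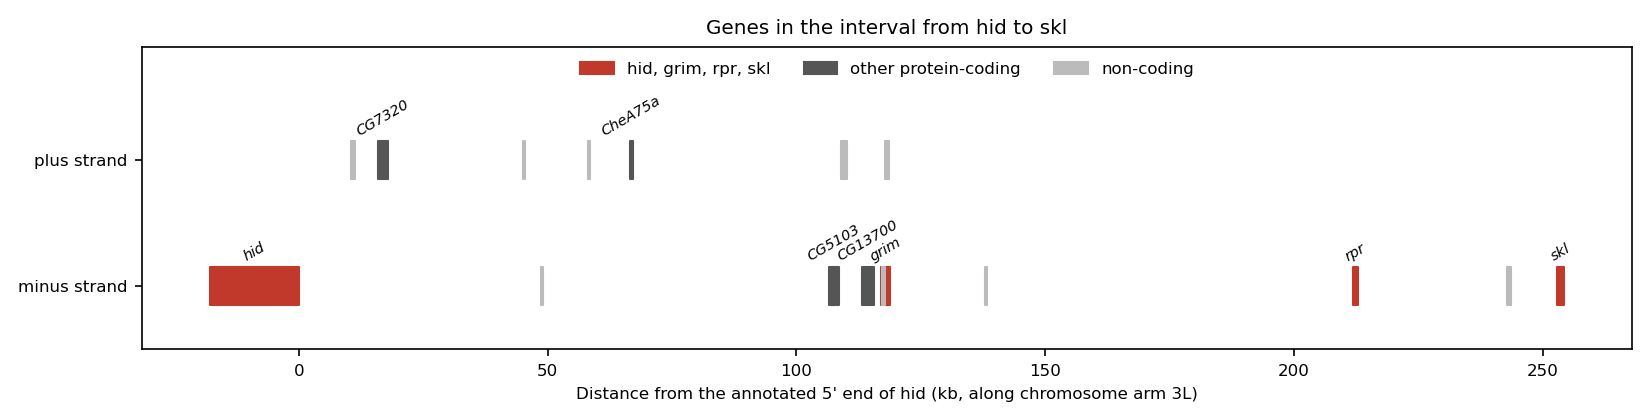
Map of the 17 annotated genes in the 272.2 kb from hid to skl, drawn to scale by strand, with distance in kb from the annotated 5′ end of hid on the x axis. The 4 antagonist genes (red) are all on the minus strand, and most genes between them are non-coding (light grey).

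Of the 8 genes, 3 share exonic bases with another gene, and the sources used here do not say whether counting used the strand. Dcp-1 shares 239 bases with pita on the opposite strand, so its counts are uncertain. The group means of pita lay between 20.3 and 28.7 CPM (counts per 1e+06 counts of the library) and those of Dcp-1 between 1.88 and 41.6 CPM, with pita the higher in all adult groups and the lower in pupal VNC. grim shares 749 bases with the antisense RNA asRNA:CR45974, which did not exceed 0.109 CPM in any library, and 541 bases with lncRNA:CR45975, which was at 0 throughout. Diap1 shares 347 bases with asRNA:CR45889, which did not exceed 0.572 CPM. Both RNAs that overlap grim lie wholly within its exon, lncRNA:CR45975 on the same strand. How reads in shared bases were assigned is not given either. Values near 0 for these RNAs therefore do not show that the counts of grim or Diap1 are unaffected, and those of grim are uncertain too.

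Library totals ran from 12.4 to 39.3 in units of 1e+06 counts. None of 24 pairs of replicates held identical values, and each pair differed by more than counting error allows, with a chi-square of 12.9 to 214 for each degree of freedom. The muscle markers Mhc, Act88F, fln and TpnC4 summed to between 9400 and 38300 CPM in IFM libraries, against 19.6 to 411 CPM in VNC libraries. The neuron markers elav, nSyb, brp and Syt1 summed to between 69.5 and 157 CPM in IFM libraries, against 2590 to 6480 CPM in VNC libraries, so each tissue carried its own markers and IFM some neuronal RNA. These are bulk samples, in which fewer cells of a type and less RNA per cell cannot be told apart.

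Per exonic length, Diap1 was the most abundant of the 8 transcripts in all 8 groups. Levels between genes and between tissues are given as RPKM (reads per kilobase of exonic sequence per 1e+06 counts, TMM-scaled over all 24 libraries). Diap1 averaged 73.6 ± 1.09 RPKM in MeHg adult IFM, 72.6 ± 6.47 in control adult IFM, 76.3 ± 1.9 in MeHg pupal IFM and 63.3 ± 1.36 in control pupal IFM (SD, n = 3 each). In VNC it averaged 51.5 ± 2.15 RPKM in MeHg adults, 45.7 ± 1.57 in control adults, 95.4 ± 7.41 in MeHg pupae and 94.9 ± 3.96 in control pupae. In both tissues of pupae rpr and Dronc stood among the 4 highest of the 8. By these values grim was lowest in every group, although grim and skl overlapped between libraries in adult IFM. The RPKM of grim divides by all its 1699 exonic bases, shared ones included. Its rank is uncertain, since reads in shared bases may not have been counted for it.

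hid was most abundant in MeHg pupal IFM, at 39.3 ± 4.52 RPKM, with no library of any other group reaching its range. It averaged 23.9 ± 4.5 RPKM in control pupal IFM, 21.8 ± 3.47 in MeHg pupal VNC and 19.3 ± 2.73 in control pupal VNC, and neighbours in that order overlapped. In adults it averaged 4.63 ± 1.05 RPKM in MeHg IFM, 4.23 ± 0.518 in control IFM, 2.45 ± 0.488 in MeHg VNC and 2.57 ± 0.183 in control VNC. Both adult VNC groups lay below both adult IFM groups for hid, and all adult libraries lay below all pupal ones.

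rpr too was highest on average in MeHg pupal IFM, with 50.9 ± 9.24 RPKM, followed by 41.6 ± 5.83 in MeHg pupal VNC, 35.6 ± 2.74 in control pupal VNC and 32 ± 5.08 in control pupal IFM, each overlapping its neighbour. The 4 adult groups of rpr were spread further apart than those of hid. They averaged 6.25 ± 0.845 RPKM in MeHg IFM, 10.5 ± 1.54 in control IFM, 1.88 ± 0.434 in MeHg VNC and 2.58 ± 0.432 in control VNC, and only the VNC groups overlapped.

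grim and skl had another pattern, with their highest levels in pupal VNC. grim averaged 5.7 ± 1.07 RPKM in MeHg pupal VNC and 5.54 ± 0.0821 in control pupal VNC, and skl averaged 16.4 ± 2.12 and 15.9 ± 1.33 RPKM in these groups. In adult IFM both were near the limit of detection. The counts of grim were 1, 0 and 0 in the MeHg libraries, against 5, 0 and 0 in the control libraries, and those of skl were 2, 2 and 1 in the MeHg libraries, against 1, 3 and 2 in the control libraries. A count of 0 allows up to 3 counts in a library, so no fold change between these groups is given.

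**Figure D2:**
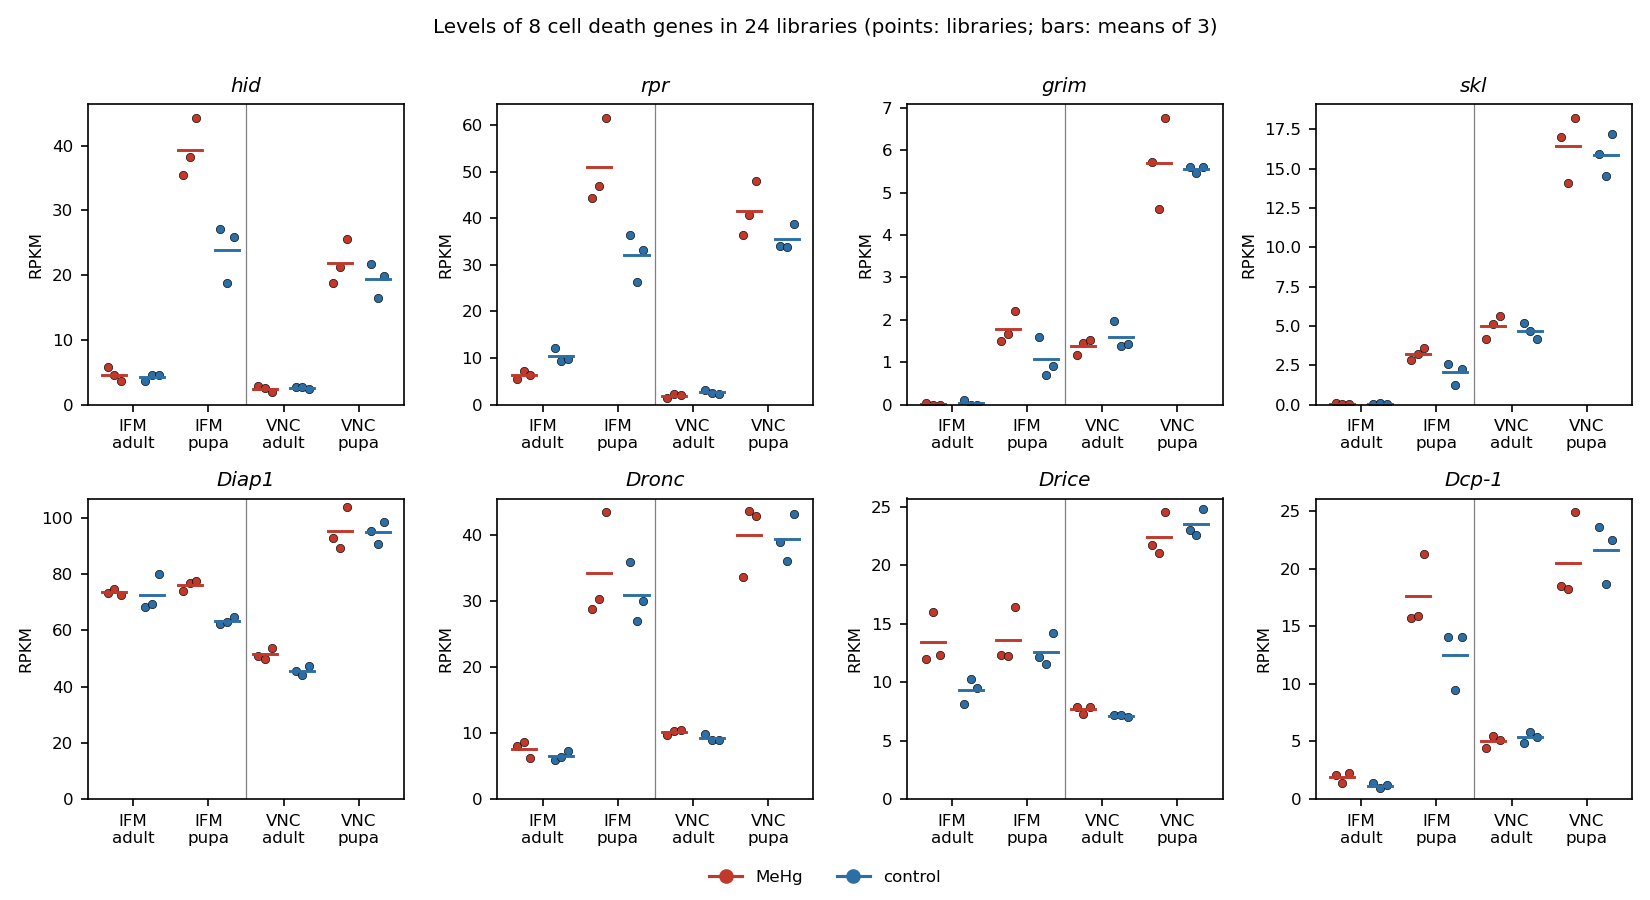
Levels of the 8 genes in RPKM (y axis, linear, from 0) in all 24 libraries (points), with the mean of 3 (bars), for MeHg (red) and control (blue) in adult and pupal IFM and VNC. The 3 MeHg pupal IFM libraries lie above all others for hid, grim and skl are near 0 in adult IFM, and Diap1 and Drice keep in adult IFM a level near that of pupal IFM.

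Likeness of profile across the 24 libraries is given as Pearson's r of log2(CPM + 1), a description in which groups share tissue and stage. The highest was 0.983 between grim and skl, followed by 0.961 between hid and rpr, 0.95 between Dronc and Dcp-1 and 0.907 between Diap1 and Drice. Next came 0.905 between hid and Dronc and 0.89 between grim and Dcp-1, so the genes did not split into separate pairs. The lowest was 0.249 between skl and Diap1. Among 5682 genes of at least 5 CPM on average, those most like hid were pwn (0.988), Cad74A (0.987) and dachs (0.987), and those most like rpr were Delta (0.986), Uba2 (0.983) and NimC2 (0.981).

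In pupal IFM, while the muscles form, hid and rpr were higher in MeHg animals than in controls by 1.62-fold and 1.56-fold. The other antagonists and the caspases did not pass the test. The comparison asks whether larval MeHg changed the machinery at 30 h of pupal life.

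hid had 125, 141 and 150 CPM in MeHg pupal IFM, against 95.6, 72.7 and 89.1 CPM in control pupal IFM (CPM here and below are TMM-scaled within the 12 libraries of a tissue). All 3 MeHg libraries lay above all 3 controls. The log2 fold change was 0.69 ± 0.16 (standard error), with an adjusted p of 0.0413 by the quasi-likelihood test of edgeR, adjusted by Benjamini-Hochberg over the 11347 genes tested in IFM, as for all adjusted p of MeHg and stage effects in IFM. rpr had 35, 38.9 and 46.8 CPM in MeHg pupal IFM, against 28.8, 23 and 25.7 CPM in control pupal IFM, again without overlap. Its log2 fold change was 0.64 ± 0.15 (edgeR adjusted p = 0.0492).

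Both calls stood close to the threshold of 0.05. The log2 fold change of hid stayed between 0.59 and 0.78, and that of rpr between 0.51 and 0.87, over 16 alternatives. Of these, hid was called in 8 and rpr in 7. Leaving out 1 of the 6 libraries ended the call of rpr in each case, with adjusted p up to 0.22 (edgeR). It ended that of hid in 5 of the 6, all but the one without control replicate 1, with adjusted p up to 0.185.

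The titles of the pupal libraries carry 2 tags whose meaning the labels do not give, 1 for replicate 1 and 1 for replicates 2 and 3. Within the tag of replicate 1, hid had 125 CPM in the MeHg library and 95.6 in the control library, and rpr had 35 and 28.8. Within the other tag, hid had 141 and 150 CPM in the MeHg libraries, against 72.7 and 89.1 in the control libraries, and rpr had 38.9 and 46.8, against 23 and 25.7. Both genes were thus higher in MeHg within both tags. With the tag as a covariate the log2 fold change of hid was 0.70 (edgeR adjusted p = 0.0682) and that of rpr 0.64 (0.12).

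Fold changes in this comparison also moved with the length of the gene, with a Spearman correlation of 0.47 across 6966 genes. hid, at 4018 exonic bases, is longer than the median tested gene of 1934 bases, and rpr, at 901, is shorter. With the trend of each library removed, the log2 fold change of hid was 0.62 (edgeR adjusted p = 0.0701), and that of rpr was 0.87 (0.0246).

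The other 2 antagonists had low counts. skl had 3.45, 4.1 and 4.17 CPM in MeHg pupal IFM, against 3.14, 1.68 and 2.69 CPM in control pupal IFM, with a log2 fold change of 0.64 ± 0.32 (edgeR adjusted p = 0.296). grim had 2.22, 2.61 and 3.17 CPM, against 2.39, 1.14 and 1.32 CPM in controls, with a log2 fold change of 0.73 ± 0.66 (edgeR adjusted p = 0.602). The MeHg libraries of skl lay above the controls by a narrow margin, and those of grim overlapped them. The sizes of these differences were close to those of hid and rpr, but their intervals reached below 0, at -0.07 for skl and -0.73 for grim (95% lower bounds, log2).

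Diap1 had 204, 223 and 206 CPM in MeHg pupal IFM, against 172, 191 and 175 CPM in control pupal IFM. The MeHg libraries were all higher, by a log2 fold change of 0.23 ± 0.084 that did not pass (edgeR adjusted p = 0.163). It was called by DESeq2 (0.24, adjusted p = 0.0437), by limma (0.26, 0.0453) and by edgeR on all 24 libraries (0.27, 0.0445). These alternatives called 949, 873 and 587 of all genes, against 341 in the main fit. Dcp-1 had 24.1, 25.6 and 31.5 CPM in MeHg libraries, against 21.7, 16 and 21.2 CPM in control libraries, also without overlap and also short of the threshold (log2 0.46 ± 0.20, edgeR adjusted p = 0.234). For Dronc and Drice the groups overlapped. Dronc had 50.7, 56 and 74 CPM in MeHg libraries, against 63.4, 52.3 and 52 CPM in control libraries (log2 0.11 ± 0.16), and Drice had 20.7, 21.7 and 26.7 CPM, against 20.5, 21.5 and 23.5 CPM in control libraries (log2 0.076 ± 0.14).

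Of the 8 genes, 2 were called, both higher, where 3.01% of all genes tested in this comparison were called and 0.917% were called higher. All 8 estimates were above 0, with a median log2 fold change of 0.55 against 0 over all genes. In 5 of the 8 (hid, rpr, skl, Diap1 and Dcp-1) the ranges of both groups were separate, as they were in 28.7% of all genes.

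Markers of other cells were compared in the same libraries, as summed CPM scaled over all 24 libraries. The glia markers (repo, moody, wrapper and alrm) summed to between 52.1 and 57.3 CPM in MeHg pupal IFM, against 39.6 to 49.5 CPM in control pupal IFM, with all 4 estimates above 0 and none of the 4 called. The myoblast markers twi and Him summed to between 6.85 and 9.22 CPM, against 3.65 to 7.26 CPM in controls. The neuron markers summed to between 125 and 157 CPM, against 103 to 140 CPM, and the haemocyte markers (Hml, NimC1, Pxn and Sr-CI) to between 82.7 and 111 CPM, against 76 to 94.6 CPM, with 1 of the 4 called higher. The fat body markers (Lsp2, Fbp1 and Fbp2) summed to between 5810 and 11400 CPM, against 5340 to 10300 CPM, with 1 of the 3 estimates above 0 and none called. The muscle markers ran from 29000 to 38300 CPM, against 33600 to 37300 CPM, with 1 of the 4 called lower. No defining marker was at 0 in every library of a group, and the part of these cells in the hid and rpr result was not tested.

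In adult IFM, 15 days old and back on plain food since eclosion, rpr was lower and Drice higher in MeHg animals, while hid did not pass the test. rpr had 4.57, 5.93 and 5.46 CPM in MeHg adult IFM, against 10.1, 7.67 and 8.11 CPM in control adult IFM. Every MeHg library lay below every control, and rpr fell by 0.70 ± 0.16 on the log2 scale (edgeR adjusted p = 0.0258), to 0.617 of the control level. Drice, the main effector caspase, had 21.7, 28.7 and 22.9 CPM in MeHg adult IFM, against 14.3, 18 and 16.7 CPM in control adult IFM. Its ranges were separate in the other direction, and it rose by a log2 fold change of 0.58 ± 0.14 (edgeR adjusted p = 0.0337), or 1.49-fold.

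Dcp-1, the second effector caspase, had 3.48, 2.32 and 3.83 CPM in MeHg adult IFM, against 2.19, 1.48 and 1.96 CPM in control adult IFM. The MeHg libraries were again all higher, but the log2 fold change of 0.76 ± 0.22 missed the threshold (edgeR adjusted p = 0.0625). Without MeHg replicate 3 it was 0.95 and was called (edgeR adjusted p = 0.0341), and DESeq2 (0.78, adjusted p = 0.0206) and edgeR on all 24 libraries (0.71, 0.0373) called it too. These last alternatives called 1522 and 1410 of all genes, against 862 in the main fit. The antisense neighbour of Dcp-1, pita, had 25.6, 31.4 and 29.1 CPM in MeHg adult IFM, against 24.1, 21.6 and 24.8 CPM in control adult IFM (log2 0.29 ± 0.11, edgeR adjusted p = 0.118), and was the more abundant of the pair. Its part in the count of Dcp-1 was not tested.

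hid had 21.7, 16.8 and 14.2 CPM in MeHg adult IFM, against 13.4, 16.5 and 16.7 CPM in control adult IFM. The groups overlapped, and the log2 fold change was 0.17 ± 0.16 (edgeR adjusted p = 0.577, 95% interval -0.19 to 0.53). Dronc had 15.3, 16.1 and 12.1 CPM in MeHg libraries, against 11, 11.7 and 13.4 CPM in control libraries (log2 0.27 ± 0.16, edgeR adjusted p = 0.341). Diap1 had 217, 218 and 221 CPM in MeHg libraries, against 198, 198 and 230 CPM in control libraries (log2 0.066 ± 0.084, edgeR adjusted p = 0.696). Both overlapped between treatments, and grim and skl could not be compared at the counts given above.

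Of the 8 genes, 2 were called, 1 in each direction, where 7.60% of all genes were called in adult IFM, 3.67% higher and 3.93% lower. The 8 include grim and skl, whose counts were too low for a comparison. Ranges were separate in 3 of the 8 (rpr, Drice and Dcp-1) and in 27.1% of all genes. These calls too stood near the threshold. Over 16 alternatives the log2 fold change of rpr ran from -0.79 to -0.55 and was called in 7, with adjusted p up to 0.133, and that of Drice ran from 0.44 to 0.69 and was called in 10, with adjusted p up to 0.11 (edgeR except in the DESeq2 and limma alternatives). Without control replicate 1 the log2 fold change of rpr was -0.57 (edgeR adjusted p = 0.0673) and that of Drice 0.49 (0.0816), neither called. Without control replicate 3 (rpr 0.0532, Drice 0.0778) or MeHg replicate 4 (rpr 0.0835, Drice 0.0828) neither was called either, by these edgeR adjusted p. Leaving out MeHg replicate 1 ended the call of rpr alone (0.0773), and leaving out MeHg replicate 3 ended that of Drice alone (0.105).

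The adult libraries carry 1 title tag, except MeHg replicate 4, which has a tag of its own and no control beside it. Among the libraries of the shared tag, rpr had 4.57 and 5.93 CPM in MeHg, against 10.1, 7.67 and 8.11 CPM in controls, and Drice had 21.7 and 28.7 CPM, against 14.3, 18 and 16.7 CPM, so the ranges of both were separate there too. With the tag as a covariate neither was called, at a log2 fold change of -0.72 for rpr (edgeR adjusted p = 0.133) and 0.62 for Drice (0.11). Markers moved between these groups as well. The haemocyte markers summed to between 803 and 945 CPM in MeHg adult IFM, against 947 to 1640 CPM in control adult IFM, with 1 of the 4 called lower and all 4 estimates below 0. The fat body markers summed to between 689 and 1700 CPM, against 155 to 710 CPM, with none of the 3 called. Nearly all of that sum was Lsp2, at 686 to 1700 CPM against 133 to 703 CPM. Only 1 of the 3 estimates was above 0, with a median log2 fold change of -1.18, and Fbp1 and Fbp2 went the other way. The muscle markers summed to between 9400 and 14300 CPM, against 12800 to 17200 CPM, with 1 of the 4 called lower. Their part in the rpr and Drice results was not tested.

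**Figure D3:**
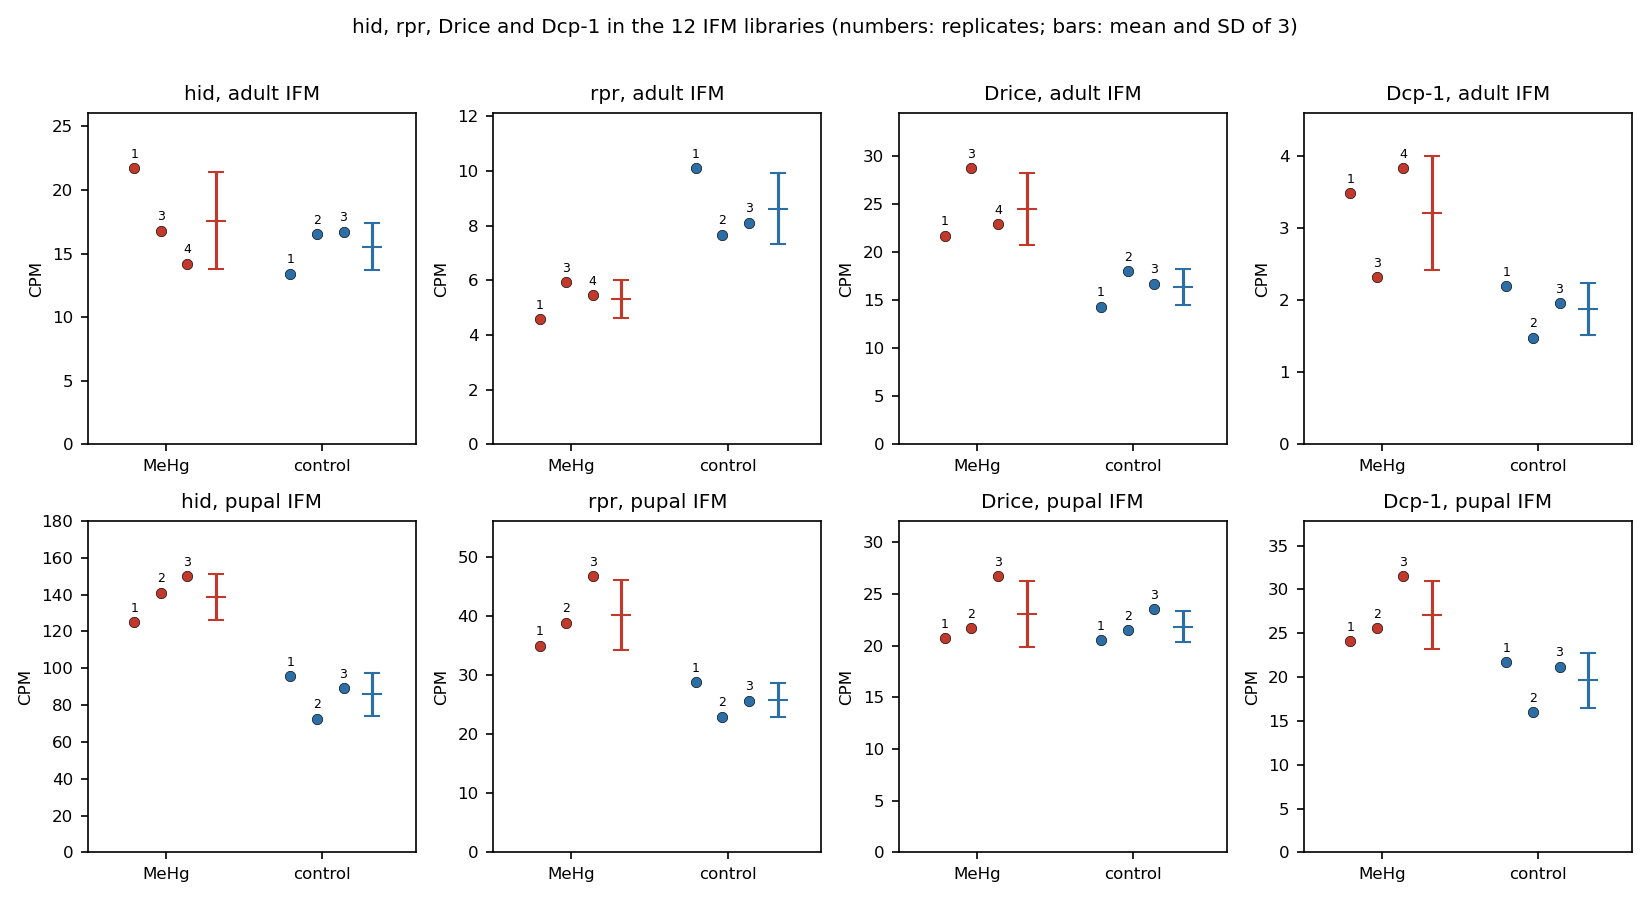
CPM (y axis, linear, from 0) of hid, rpr, Drice and Dcp-1 in the 12 IFM libraries, for adults (top) and pupae (bottom), MeHg (red) beside control (blue), with replicate numbers at the points and the mean and SD of 3 beside them. rpr lies below the controls in MeHg adults and above them in MeHg pupae, and the ranges of Drice are separate in adults and overlap in pupae.

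The effect of MeHg on rpr thus had opposite signs at the 2 stages of IFM, and the difference itself was tested as an interaction. It was -1.34 ± 0.22 on the log2 scale (edgeR adjusted p = 0.0199), where 2.69% of all genes were called and 1.17% called with a negative sign. rpr was the only one of the 8 with a called interaction, and grim and skl had too few adult counts for one. hid had -0.52 ± 0.23 (edgeR adjusted p = 0.233), Drice 0.50 ± 0.20 (0.198) and Dcp-1 0.30 ± 0.30 (0.64), so a difference between stages was not shown for these 3. For rpr the value ran from -1.44 to -1.21 over 21 alternatives, and it was called in 18 of them. One of the 3 losses came without MeHg pupal replicate 3, at -1.22 (edgeR adjusted p = 0.0518), and one with the title tag as a covariate, at -1.35 (0.0957).

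In VNC none of the 8 genes was called by edgeR at either stage. In pupal VNC hid had 84.7, 97.8 and 109 CPM in MeHg libraries, against 94.1, 75 and 87 CPM in control libraries. The groups overlapped, with a log2 fold change of 0.19 ± 0.14 (edgeR adjusted p = 0.746, 95% interval -0.12 to 0.50). rpr had 37, 42 and 45.8 CPM in MeHg pupal VNC, against 33.1, 34.8 and 38 CPM in control pupal VNC, with the lowest MeHg library below the highest control (log2 0.24 ± 0.15, edgeR adjusted p = 0.697, 95% interval -0.10 to 0.57). The other 6 had log2 fold changes between -0.061 for Dcp-1 and 0.064 for skl. None of the 8 had an unadjusted p under 0.05, and DESeq2 and limma called none either. No gene of the 8 had separate ranges, as 14.3% of all genes did, and 0.531% of all genes were called.

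In adult VNC rpr had 1.38, 2.24 and 2.03 CPM in MeHg libraries, against 3, 2.28 and 2.2 CPM in control libraries, and the groups overlapped (log2 -0.40 ± 0.18, edgeR adjusted p = 0.368). Diap1 had 177, 176 and 188 CPM in MeHg adult VNC, against 156, 140 and 165 CPM in control adult VNC, with separate ranges (log2 0.23 ± 0.072, edgeR adjusted p = 0.285). It was called by DESeq2, which called 276 of all genes there, against 8 by edgeR. Drice had 16.9, 15.8 and 16.9 CPM, against 15.2, 13.9 and 15 CPM in controls, and Dronc had 21.7, 23.3 and 23.5 CPM, against 21.6, 18.3 and 19.9 CPM in controls, both with MeHg above control throughout (log2 0.17 ± 0.074 and 0.20 ± 0.11, edgeR adjusted p = 0.366 and 0.422). hid, grim, skl and Dcp-1 had log2 fold changes between -0.14 and 0.15. Ranges were separate for 3 of the 8 and for 23.6% of all genes. By adjusted p, edgeR called only 0.0674% of all genes. An unadjusted p under 0.05 was found for 3 of the 8 (rpr, Diap1 and Drice). The share of all genes at that unadjusted level is not given, here or below, so such counts have no background.

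Whether the effect of MeHg differed between the tissues was tested over all 24 libraries. In pupae the interaction (IFM effect minus VNC effect) was 0.55 ± 0.25 for hid (edgeR adjusted p = 0.432) and 0.44 ± 0.24 for rpr (0.496), over 12631 genes. All 8 interactions were above 0, with a median of 0.50 against 0.05 over all genes. An unadjusted p under 0.05 was found for 3, without a share of all genes to set beside it. None of the 8 was called by DESeq2 or by edgeR, which called 0.245% of all genes by adjusted p. The hid and rpr rise in pupal muscle was therefore not shown to differ from the values in pupal nerve cord. In adults the largest interactions with enough counts were 0.81 ± 0.29 for Dcp-1 (edgeR adjusted p = 0.124) and 0.42 ± 0.18 for Drice (0.207). edgeR called none of the 8 where 3.38% of all genes were called by adjusted p. DESeq2 called Dcp-1 and Drice, where it called 1177 of all genes, against 427 by edgeR. An unadjusted p under 0.05 was found for 2, again without a share of all genes at that level. The interaction of rpr between tissues in adults was -0.28 ± 0.27 (edgeR adjusted p = 0.58). Within VNC, the stage difference of the MeHg effect on rpr was -0.64 ± 0.24 (edgeR adjusted p = 0.316), in the same direction as in IFM, where 0.00842% of all genes were called. No gene of the 8 was called by edgeR there, and rpr alone had an unadjusted p under 0.05.

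**Figure D4:**
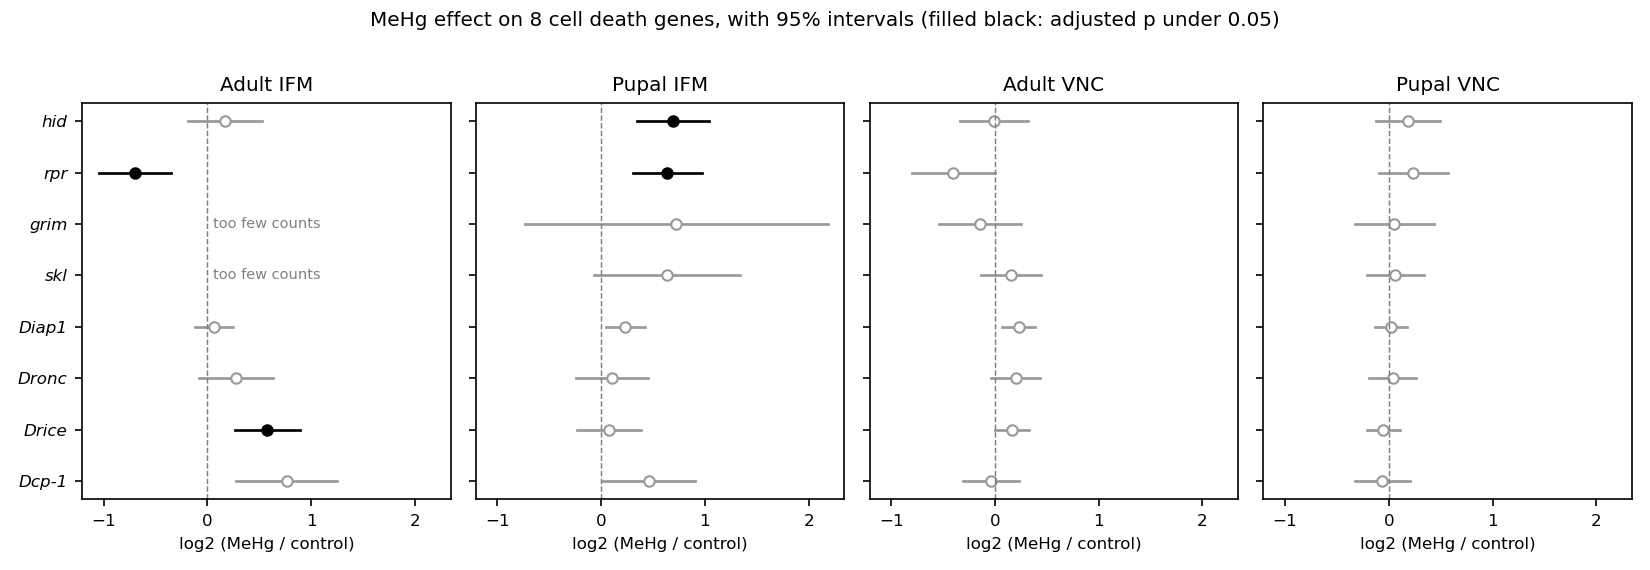
Log2 fold change of MeHg over control (x axis) for the 8 genes (y axis) with 95% intervals in adult IFM, pupal IFM, adult VNC and pupal VNC. The filled points, with adjusted p under 0.05, are hid and rpr in pupal IFM and rpr and Drice in adult IFM, and grim and skl have too few counts in adult IFM.

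Ratios between the genes of 1 library do not depend on its scaling. They can still depend on its length trend, which was not removed here, and they restate the levels given above. The summed RPKM of the 4 antagonists over that of Diap1 was 1.14, 1.17 and 1.44 in MeHg pupal IFM, against 1.09, 0.748 and 0.958 in control pupal IFM. All MeHg libraries were above all controls, the nearest pair differing little. In adult IFM this ratio was 0.153, 0.156 and 0.137 in MeHg libraries, against 0.234, 0.202 and 0.18 in control libraries, with the order turned round. In pupal VNC it was 0.835, 0.899 and 0.948 in MeHg libraries, against 0.811, 0.774 and 0.825 in controls, also separate and by a narrow margin. In adult VNC it was 0.189, 0.228 and 0.206 in MeHg libraries, against 0.283, 0.253 and 0.214 in controls, where the groups overlapped.

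The ratio of the 3 caspases over Diap1 was 0.302, 0.349 and 0.286 in MeHg adult IFM, against 0.225, 0.253 and 0.225 in control adult IFM, without overlap. In pupal IFM it was 0.766, 0.758 and 1.04 in MeHg libraries, against 0.998, 0.759 and 0.9 in control libraries, with overlap. hid over rpr was 1.06, 0.635 and 0.582 in MeHg adult IFM, against 0.297, 0.484 and 0.462 in control adult IFM, so hid exceeded rpr per length in 1 of these 6 libraries. In pupal IFM hid over rpr was 0.801, 0.813 and 0.721 in MeHg libraries, against 0.744, 0.708 and 0.777 in control libraries, with overlap. With 3 libraries against 3, an exact permutation test of a single ratio cannot give a two-sided p below 0.10, and none is given.

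**Figure D5:**
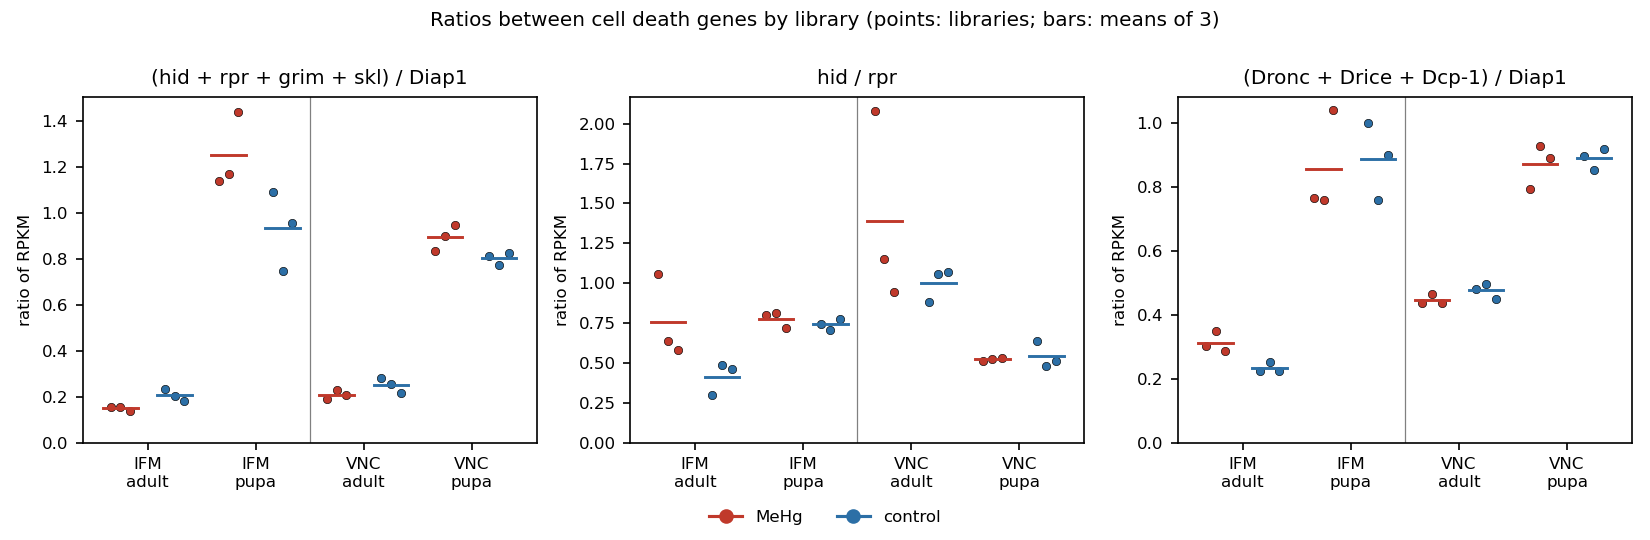
Ratios of RPKM (y axis, linear, from 0) in each of the 24 libraries (points) with the mean of 3 (bars), for MeHg (red) and control (blue) in adult and pupal IFM and VNC. Antagonists per Diap1 are above the controls in MeHg pupal IFM (1.14 to 1.44 against 0.748 to 1.09) and below them in MeHg adult IFM (0.137 to 0.156 against 0.18 to 0.234).

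In adults the machinery stood lower than in pupae in both tissues, with exceptions in IFM. In control VNC all 8 genes were lower in adults, where 64.3% of all genes were called and 32.6% called lower. In control IFM all 8 were called, 7 lower in adults and Diap1 higher, where 74.4% of all genes were called, 37.7% higher and 36.7% lower. Of these 7, grim and skl passed the low-count filter only through the pupal libraries. Since the title tags of adults and pupae differ, stage and tag cannot be told apart.

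Markers of other cells differed between the stages too. In control IFM the fat body markers summed to between 155 and 710 CPM in adults, against 5340 to 10300 CPM in pupae, with all 3 called lower. The myoblast markers summed to between 1.42 and 2.94 CPM in adults, against 3.65 to 7.26 CPM in pupae, with both called lower. The haemocyte markers went the other way, with 947 to 1640 CPM in adults, against 76 to 94.6 CPM in pupae, and all 4 called higher. In control VNC the fat body markers summed to between 25.7 and 75 CPM in adults, against 8700 to 10600 CPM in pupae, and the myoblast markers to between 0.145 and 0.217 CPM, against 1.39 to 2.54 CPM, all of them called lower. The part of these cells in the stage differences was not tested.

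rpr in control VNC was at 3, 2.28 and 2.2 CPM in adults, against 33.1, 34.8 and 38 CPM in pupae. All adult libraries lay far below the pupal ones (log2 -3.82 ± 0.18, edgeR adjusted p = 4.83e-09), which is the largest of the 8 differences there. hid in control VNC was at 11.8, 10.8 and 10.5 CPM in adults, against 94.1, 75 and 87 CPM in pupae (log2 -2.95 ± 0.15, edgeR adjusted p = 1.32e-08). The caspases were lower by 2.13 (Dronc), 1.76 (Drice) and 2.05 (Dcp-1) on the log2 scale, at log2 fold changes of -2.13 ± 0.11, -1.76 ± 0.075 and -2.05 ± 0.12. grim (-1.84 ± 0.18), skl (-1.81 ± 0.13) and Diap1 (-1.09 ± 0.073) were also lower in adults.

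In control IFM rpr was at 10.1, 7.67 and 8.11 CPM in adults, against 28.8, 23 and 25.7 CPM in pupae (log2 -1.58 ± 0.16, edgeR adjusted p = 2.58e-06), and hid was at 13.4, 16.5 and 16.7 CPM, against 95.6, 72.7 and 89.1 CPM in pupae (log2 -2.46 ± 0.17, 1.05e-07). Dronc was lower in adults by a similar amount (log2 -2.22 ± 0.17), and Dcp-1 had -3.38 ± 0.23. Drice, the other effector caspase, differed little (-0.42 ± 0.14, edgeR adjusted p = 0.0192), and Diap1 was slightly higher in adults (0.22 ± 0.084, 0.0341). Both calls depended on settings or single libraries. That of Diap1 was lost without control pupal replicate 3 (log2 0.21, edgeR adjusted p = 0.0757) and with the length trend removed (0.17, 0.101). That of Drice was lost without control adult replicate 1 (-0.26, 0.129), control adult replicate 3 (-0.35, 0.0629) or control pupal replicate 3 (-0.35, 0.0806), and without the low-count filter (-0.29, 0.0853). grim had 5, 0 and 0 counts in adult control IFM and 2.39, 1.14 and 1.32 CPM in pupal control IFM. skl had 1, 3 and 2 counts in adults and 3.14, 1.68 and 2.69 CPM in pupae. Both were called lower in adults (edgeR adjusted p = 0.000436 and 6.68e-07), but they passed the low-count filter only through the pupal libraries. The counts show both near the limit of detection in adults, and the calls add nothing to that. Fitted fold changes of these 2 genes are not given, since they depend on the prior count.

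In MeHg IFM 6 of the 8 were lower in adults, where 75.6% of all genes were called and 37.1% called lower. The 6 include grim and skl, which passed the low-count filter only through the pupal libraries there too. Diap1 (log2 0.052 ± 0.084) and Drice (0.084 ± 0.14) did not pass. rpr was at a log2 fold change of -2.92 ± 0.16 there, against -1.58 ± 0.16 in controls, which is the interaction given above seen from the other side. In MeHg VNC all 8 were lower in adults, where 66.1% of all genes were called and 31.8% called lower, with rpr at -4.46 ± 0.18, hid at -3.15 ± 0.16 and Diap1 at -0.89 ± 0.072.

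Between tissues, in control pupae 5 of the 8 were lower in IFM than in VNC and none was higher, where 60.0% of all genes were called and 34.1% lower. skl had 2.58, 1.26 and 2.27 RPKM in control pupal IFM, against 15.9, 14.5 and 17.2 RPKM in control pupal VNC (log2 -2.96 ± 0.22, edgeR adjusted p = 2.91e-10). grim showed the same direction (log2 -2.38 ± 0.45, edgeR adjusted p = 0.000101), followed by Drice (-0.89 ± 0.13), Dcp-1 (-0.78 ± 0.19) and Diap1 (-0.58 ± 0.075). hid (0.30 ± 0.18, edgeR adjusted p = 0.155), rpr (-0.15 ± 0.17, 0.479) and Dronc (-0.35 ± 0.15, 0.0565) did not pass. The median of all genes was -0.11 in this comparison. The calls of grim, skl, Drice and Dcp-1 held in all 13 alternatives, while the call of each other gene changed with a setting or a library. hid was called higher in IFM with RLE scaling (log2 0.47, edgeR adjusted p = 0.0124), by DESeq2 (0.47, 0.00589) and by limma (0.41, 0.0125), and likewise without control IFM replicate 2 or control VNC replicate 1 or 3. Dronc was called lower without control IFM replicate 1 (-0.48, edgeR adjusted p = 0.0215), without the low-count filter (-0.39, 0.0471) and with the length trend removed (-0.30, 0.0317). With the length trend removed hid (0.91) was called higher and rpr (-0.67) lower, and Diap1 lost its call (-0.14, edgeR adjusted p = 0.0898).

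In control adults all 8 differed between the tissues, 4 higher and 4 lower in IFM, where 73.0% of all genes were called, 35.0% higher and 38.0% lower, and their median log2 fold change was -0.13. rpr was 4.05-fold higher in IFM (log2 2.02 ± 0.19, edgeR adjusted p = 6.84e-09), with hid (0.72 ± 0.19), Diap1 (0.67 ± 0.075) and Drice (0.38 ± 0.13) higher as well. Dcp-1 was lower in IFM (-2.18 ± 0.21), as was Dronc (-0.50 ± 0.16). The call of Drice was lost without control IFM replicate 2 (0.30, edgeR adjusted p = 0.0777), and that of Dronc without control VNC replicate 1 (-0.27, 0.12) or 3 (-0.34, 0.0608). skl had 0.025, 0.0906 and 0.0509 RPKM in IFM, against 5.16, 4.66 and 4.16 RPKM in VNC, and grim had 0.102, 0 and 0 RPKM in IFM, against 1.96, 1.38 and 1.42 RPKM in VNC (edgeR adjusted p = 4.71e-13 and 1.34e-07). In adult IFM both were near the limit of detection. They passed the low-count filter only through other groups, so these 2 calls add nothing to the values.

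Beyond the 8, a set of 56 genes in 8 lists covers other parts of the pathway. In pupal IFM 1 of 54 tested genes was called higher and none lower, where 3.01% of all genes were called, with a median log2 fold change of 0.048. That gene was Eip93F, an ecdysone-induced transcription factor that takes part in steroid-triggered cell death. It had 346, 319 and 347 CPM in MeHg pupal IFM, against 241, 221 and 227 CPM in control pupal IFM, with separate ranges (log2 0.55 ± 0.10, edgeR adjusted p = 0.0141). Its call was lost without control replicate 2 (edgeR adjusted p = 0.0712), without MeHg replicate 3 (0.0825) and with the length trend removed, where its log2 fold change was 0.32 (0.188). A replicate block, under which 0 of all genes were called in pupal IFM, ended it as well. All 7 ecdysone factors (EcR, usp, br, Eip74EF, Eip75B, Eip93F and ftz-f1) had estimates above 0, with a median of 0.16. The share of all genes above 0 is not given. Fold changes in pupal IFM moved with gene length, and the part of length in these signs was not tested. Of 9 upstream death signals, which include p53, the tumour necrosis factor egr and the kinase genes hep and bsk, 7 were above 0 and none was called. Of 6 Bcl-2 family and mitochondrial factors, 1 was above 0, with a median of -0.32, and none was called. None was called among 5 apoptosome and caspase genes, 6 other inhibitors and turnover genes, 4 DNA fragmentation genes, 6 engulfment genes and 11 autophagy genes. Of the 54, 11 had an unadjusted p under 0.05, a level at which the share of all genes is not given. DESeq2 and limma called 3 each, where they called 949 and 873 of the 11347 genes in the fit.

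In adult IFM 1 of 54 was called higher and 1 lower, where 7.60% of all genes were called, with a median of -0.034. The one called higher was Damm, a caspase. Damm had 59.6, 99.6 and 81.6 CPM in MeHg adult IFM, against 2.67, 13.9 and 2.09 CPM in control adult IFM. Every MeHg library lay above every control, although the controls differed much among themselves (log2 3.70 ± 0.91, edgeR adjusted p = 0.0404). Without control replicate 2 the log2 fold change was 5.07 (0.014), and without control replicate 1 it was 3.34 (0.116). The call was also lost without control replicate 3 (3.28, 0.123) and without MeHg replicate 1 (edgeR adjusted p = 0.0729), 3 (0.0883) or 4 (0.108), without the low-count filter (0.0805), with the title tag as a covariate (0.151) and with the 6 libraries alone (0.107). Damm averaged 0.0637 ± 0.0395 CPM in MeHg pupal IFM and 0.805 ± 1.23 CPM in control pupal IFM, and 0.941 ± 0.376 CPM in MeHg adult VNC and 0.788 ± 0.705 CPM in control adult VNC. Decay (1.87 ± 0.59, edgeR adjusted p = 0.0864) and Strica (0.99 ± 0.32, 0.0811), 2 further caspases, had estimates above 0 in adult IFM and did not pass, while Dark, the adaptor of Dronc, was at -0.16 ± 0.10 (0.377).

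The one called lower in adult IFM was Cyt-c-p, the cytochrome c of the respiratory chain. It had 1980, 2480 and 1940 CPM in MeHg adult IFM, against 2900, 3150 and 3740 CPM in control adult IFM, with separate ranges (log2 -0.61 ± 0.14, edgeR adjusted p = 0.0297). With the length trend removed it was -0.41 (0.0608). The call was also lost without control replicate 3 (edgeR adjusted p = 0.095) or MeHg replicate 1 (0.0848) or 4 (0.116), with the title tag as a covariate (0.175) and with the 6 libraries alone (0.0881). In pupal VNC 1 of 56 was called lower and none higher, where 0.531% of all genes were called. HtrA2, a mitochondrial protease that can cleave Diap1, had 5.97, 5.38 and 4.42 CPM in MeHg pupal VNC, against 7.94, 8.47 and 8.67 CPM in control pupal VNC (log2 -0.67 ± 0.12, edgeR adjusted p = 0.0394), with separate ranges. This call was lost without any 1 of the 3 controls (edgeR adjusted p from 0.132 to 0.181) and without MeHg replicate 3 (0.127). It was lost too without the low-count filter (0.0701), with the title tag as a covariate (0.0813) and with the 6 libraries alone (0.417). A replicate block, under which 0 of all genes were called in pupal VNC, ended it as well. In adult VNC none of 56 was called by edgeR, DESeq2 or limma. An unadjusted p under 0.05 was found for 9, with no share of all genes at that level given.

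With stage, 26 of the 54 list genes were higher and 17 lower in adult than in pupal control IFM, where 37.7% of all genes were called higher and 36.7% lower. Their median log2 fold change was 0.28, while the 8 apoptosis genes had a median of -2.34. In VNC 21 of 56 were higher and 19 lower, where 31.7% of all genes were called higher and 32.6% lower, with a median of 0.11, against -1.95 for the 8. Diap2, a second inhibitor of apoptosis, was higher in adults of both tissues (log2 1.79 ± 0.09 in IFM and 1.84 ± 0.14 in VNC, edgeR adjusted p = 9.28e-09 and 3.79e-07), unlike Diap1 in VNC. Among the engulfment genes, NimC4 was lower in adults of both (-6.96 ± 0.43 and -2.78 ± 0.34). Among the ecdysone factors, Eip74EF (-2.86 ± 0.15 and -1.49 ± 0.08) and Eip75B (-1.36 ± 0.098 and -0.86 ± 0.098) were lower and ftz-f1 (1.11 ± 0.15 and 2.75 ± 0.087) higher. Between tissues of control pupae all 5 DNA fragmentation genes, which include the Drep genes of the caspase-activated nuclease system, were called lower in IFM. Their median was -3.98, and 34.1% of all genes were called lower in this comparison. All 4 neuron markers were called lower in IFM there too, with a median of -5.32. The part of cell content in the fragmentation genes was not tested.

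Within the interval from hid to skl, the 4 antagonists were tested beside 3 other genes in IFM. In pupal IFM, where hid and rpr were called, CG7320 averaged 6.6 CPM in MeHg libraries and 5.19 CPM in control libraries (log2 0.34 ± 0.28, edgeR adjusted p = 0.568). lncRNA:CR45936 averaged 2.71 CPM in MeHg libraries and 1.42 CPM in control libraries (log2 0.93 ± 0.48, edgeR adjusted p = 0.32), and CG13700 was below 1 CPM in both.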

How the data were processed

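Total RNA libraries were made with a stranded kit, per the labels' protocols. The authors deposited whole-number counts per gene for each library, not normalized, made with bcl2fastq 2.19.0, STAR 2.7.6a, Subread 2.0.1 and featureCounts on dm6, per the submitters' processing notes. The strand setting is not given in the sources used here. Symbols were matched for 17504 of 17545 genes in a RefSeq table and exonic lengths for 17480 in a matching Ensembl annotation.

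Counts were tested with edgeR 4.0.16 (R 4.3.3): TMM scaling, filterByExpr (minimum count 10, total 15), robust quasi-likelihood F test, Benjamini-Hochberg over all genes tested, threshold 0.05. MeHg and stage effects were fitted within each tissue on 12 libraries (residual degrees of freedom 8; 11347 genes in IFM, 11870 in VNC), and tissue effects on all 24 (16; 12631 genes). Alternatives were RLE scaling, no filter, DESeq2 1.42.0, limma 3.58.1 voom, no ribosomal RNA or mitochondrial genes, removal of length trends, a replicate block, the title tag, other sets of libraries and each library left out.

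The 8 genes and the lists were chosen with earlier results of these data known. The genes named beside the 8 are the list genes called for MeHg, examples among the 2 most significant higher and lower per list in stage and tissue comparisons, and the 3 genes most like hid and rpr. Strica, Decay and Dark in adult IFM and the genes between hid and skl were named after their values were seen. Replicates pooled 50 animals each. The labels do not say that equal replicate numbers are matched samples across groups. In pupae, however, each replicate number carries the same title tag in all groups. In MeHg adults the deviating tag is on the same replicate number in both tissues. Intervals and limits cover counting error and the spread between these libraries only.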

Additional observations from a re-analysis of the deposited data

Results flagged for a closer look

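The effect of MeHg on rpr differed between adult and pupal IFM, by a test of the difference itself, at -1.336 on the log2 scale (standard error 0.22, edgeR adjusted p = 0.0199). rpr was lower in MeHg adults in 3 of 3 libraries and higher in MeHg pupae in 3 of 3. The effect on Eip93F differed between the same stages, at -0.695 (standard error 0.141, edgeR adjusted p = 0.0309), with an estimate of 0.55 in pupae and -0.14 in adults. This call of Eip93F was lost with the length trend removed (-0.47, edgeR adjusted p = 0.132) and with the title tag as a covariate (-0.66, 0.139). It was also lost without control pupal replicate 2 (edgeR adjusted p = 0.0739) or 3 (0.0541), MeHg adult replicate 3 (0.0717) or 4 (0.0922), or MeHg pupal replicate 1 (0.0538), 2 (0.0606) or 3 (0.0914). No explanation of these differences was tested.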

How the results depend on the processing

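Over 112 results of the 8 genes and 1790 alternative values, 1725 stayed on the same side of the threshold or had no adjusted p. Another 45 were no longer past it, 20 newly passed it, and 0 reversed. A change of sign counted as reversed only for a value called in the main fit or in the alternative. Sign changes among values called in neither are within the 1725. The count of the 8 called for MeHg in pupal IFM, 2 as reported, was 1 with the length trend removed (rpr), 1 without the low-count filter (hid), 0 with the title tag and 0 to 1 with a library left out, and 3 with DESeq2, limma voom or all 24 libraries in the fit (Diap1 added). In adult IFM, 2 as reported, it was 1 with the length trend removed (Drice), 1 with limma voom (Drice), 0 with the 6 libraries alone, 0 with the title tag and 0 to 2 with a library left out, and 3 with DESeq2 or all 24 libraries (Dcp-1 added). For the difference of the MeHg effect between stages in IFM, 1 as reported, it was 0 with the title tag and 0 to 1 with a library left out. DESeq2 called 1 for MeHg in adult VNC (Diap1) and 2 for the difference of the MeHg effect between tissues in adults (Drice and Dcp-1). edgeR called 0 in both. Of all genes DESeq2 called 276 and 1177 there, against 8 and 427 by edgeR. The cause of these losses and gains was not tested.

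Same-numbered MeHg and control libraries of a tissue and stage had correlated deviations of -0.352 to 0.413, and same-numbered IFM and VNC libraries of -0.379 to 0.516. Since these did not all exceed 0.1, the numbers were not taken to pair the samples. With a replicate block the counts were 0 in pupal IFM, 1 in adult IFM and 0 for the difference of the MeHg effect between stages in IFM. For that difference rpr had -1.43 (edgeR adjusted p = 0.112). In the tissue comparisons the block changed no count of the 8.

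With the length trend removed, 4 list genes reversed: Bruce between tissues in pupae (0.685), and Dark (0.331), ftz-f1 (0.134) and hep (0.374) between tissues in adults. All genes called in pupal IFM numbered 341, and 0 to 949 over the alternatives, in adult IFM 862 (81 to 1522), in pupal VNC 63 (0 to 224) and in adult VNC 8 (2 to 276). grim and skl had at most 5 counts in any adult IFM library, which limits their comparison there.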
